A study of Arabidopsis thaliana with 12 samples.

Results

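Of the 33602 genes counted in this Arabidopsis thaliana data set 10 are described, the 3 CBF genes and 7 of the cold-regulated (COR) genes that they act on. They are CBF1, CBF2, CBF3, COR15A, COR15B, KIN1, KIN2, COR47, COR413-PM1 and RD29A. They were chosen by their measured counts, after rises had been seen in ask1 plants grown without cold treatment, so their differences between ask1 and its controls are given as descriptions, with no test. All 10 passed the low-count filter, as did 21890 genes in all. Floral buds and open flowers of 3 genotypes were profiled by RNA-seq, with 2 libraries in each of the 6 groups. The genotypes were ask1, which carries a Ds transposon insertion in ASK1, plants labelled ASK1 WT, and Col-0. All 12 libraries carry the strain label Col-0, and the labels name no agent for any group. Plants of every group grew under 16 h of light at 21 °C and 8 h of darkness at 19 °C, and tissue was taken 5 h after dawn, and the labels name no cold treatment. The labels do not say whether the libraries of a group came from separate plants, so each p-value measures only the spread between these libraries. ASK1 (AT1G75950), the subunit that links F-box proteins to the cullin in SCF ubiquitin ligases, was at 10.1 and 29.1 CPM (counts scaled to library size by TMM) in ask1 buds and at 50.9 and 29.6 CPM in ask1 open flowers. It was between 247.4 and 310.3 CPM in the 8 control libraries.

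CBF1, CBF2 and CBF3 (also called DREB1B, DREB1C and DREB1A) are AP2-domain transcription factors that are transcribed within minutes of a fall in temperature. They bind the C-repeat or drought-responsive element, whose core is CCGAC, in the promoters of COR genes, and many COR proteins are hydrophilic proteins that shield membranes and enzymes during freezing. The CBF genes are activated in cold by ICE1 and by the calmodulin-binding CAMTA factors, are gated by the circadian clock with a peak in the day, and also respond to touch and other handling. Several COR genes respond to abscisic acid as well.

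The element that joins the 2 layers is shown because its presence divides the genes by role. CCGAC, searched on both strands in the 1000 bases before the start codon, occurred in 7 of 10 of the genes, and these were the 7 COR, KIN and RD genes, against 39.3% of 26711 genes with such a window. At least 2 matches were present in 5 of the 10, against 11.4% of all genes. In the narrower window of 300 bases before the annotated transcript start, CCGAC occurred in 4 of the 10 and in 13.8% of all genes. The match nearest the start codon is given for each gene below with its 10 flanking bases, read 5′ to 3′ with CCGAC in capitals (TAIR10.1 reference).
RD29A: aaagatcaagCCGACacagacacgc
COR15A: aatttcatggCCGACctgctttttt
COR15B: aacttgatggCCGACctcttttttc
KIN1: taaatagctaCCGACataaggcaaa
KIN2: taaaaagctaCCGACataaggcaaa
COR47: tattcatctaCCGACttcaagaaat
COR413-PM1: ttaatgtataCCGACataccctatg
These sites lie 208 (RD29A), 266 (COR15A), 265 (COR15B), 178 (KIN1), 185 (KIN2), 268 (COR47) and 485 (COR413-PM1) bases before the start codon. Except for COR413-PM1, each printed site lies downstream of the annotated transcript start, inside the annotated gene and not before it. The neighbouring pairs COR15A with COR15B and KIN1 with KIN2 share most of the letters around their sites. The RD29A promoter is the example with most matches, 3 in the 300 bases before its annotated transcript start at chr5:21240417-21240716 on the plus strand, with CCGAC in capitals.
RD29A promoter: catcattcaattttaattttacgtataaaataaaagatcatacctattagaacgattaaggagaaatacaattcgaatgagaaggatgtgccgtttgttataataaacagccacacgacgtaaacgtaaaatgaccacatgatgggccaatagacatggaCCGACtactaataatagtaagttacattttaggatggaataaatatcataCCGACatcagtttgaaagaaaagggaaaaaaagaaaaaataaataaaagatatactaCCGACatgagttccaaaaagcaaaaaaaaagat

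The CBF genes had no CCGAC in the 1000 bases before the start codon. AAATATCT, the letters searched for the evening element that clock proteins bind, was found before 8 of the 10 genes in the 1000-base window and before 15.4% of all genes. It occurred at least 2 times before 5 of the 10, all 3 CBF genes among them, and before 1.85% of all genes. A match of these letters alone need not be a full evening element. The match nearest each CBF start codon, 515 (CBF1), 200 (CBF2) and 189 (CBF3) bases before it, is given with these letters in capitals. Whether these sites have a part in the ask1 differences was not tested.
CBF1: taatagacatAAATATCTctgtgaaatg
CBF2: acaaatatccAAATATCTtccggccaat
CBF3: tttgcctctaAAATATCTtccgccatta
ACGTG, the core of the abscisic acid-responsive element, was found in the 1000-base window of 10 of the 10 genes and of 54.4% of all genes. The printed AAATATCT match of CBF3 lies downstream of its annotated transcript start, and those of CBF1 and CBF2 lie before theirs. A match of letters is not evidence of binding in these tissues.

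The CBF genes, the COR15 pair and the KIN pair sit beside each other. On chromosome 4, CBF2 (AT4G25470, 13015250 to 13016235), CBF3 (AT4G25480, 13018010 to 13019400) and CBF1 (AT4G25490, 13021780 to 13022996) lie in a row on the minus strand, each as 1 exon. On chromosome 2, COR15B (AT2G42530, 17708593 to 17710433) lies 7 bases from COR15A (AT2G42540, 17710441 to 17712330), both on the minus strand. The COR15B transcript start faces the end of COR15A. But for these 7 bases, the 300 bases before that start lie inside COR15A, as does the CCGAC match counted there. On chromosome 5, KIN1 (AT5G15960, 5209717 to 5210826) and KIN2 (AT5G15970, 5211719 to 5212743) are 892 bases apart. RD29A (AT5G52310) spans 21240717 to 21243644 on chromosome 5, with RD29B 1185 bases away, COR413-PM1 (AT2G15970) spans 6949851 to 6951192 on chromosome 2, and COR47 (AT1G20440) spans 7084409 to 7086873 on chromosome 1, with ERD10 1029 bases away. The coding sequences were 95.02% identical between KIN1 and KIN2, 83.8% between COR15A and COR15B and 87.3% to 87.5% among the CBF genes. The longest identical stretch of exon between any such pair was 68 bases, shorter than the 150-nt reads, but the reads that fall on shared stretches make the split of counts within a pair uncertain. Which strand was counted is not given in the sources used here. CBF3 overlaps AT4G07385 and COR15B overlaps AT2G42520 on the opposite strand, and their counts may hold reads of those genes.

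CBF3 was the CBF gene with the steadiest difference. In buds it was at 9.16 and 11.0 CPM in ask1, against 1.62 and 1.24 CPM in ASK1 WT and 1.91 and 1.79 CPM in Col-0. In open flowers it was at 10.0 and 8.72 CPM in ask1, against 0.315 and 1.11 CPM in ASK1 WT and 1.63 and 1.73 CPM in Col-0. In each tissue, every ask1 library lay above every control library. The log2 fold change against ASK1 WT was 2.82 ± 0.34 in buds and 3.78 ± 0.38 in open flowers (edgeR estimate ± SE, n = 2 libraries per group), and against Col-0 it was 2.44 ± 0.33 and 2.47 ± 0.34. In whole buds or flowers a higher level per cell cannot be told apart from more cells that hold the transcript.

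CBF1 and CBF2 were rarer, and in buds most of their counts came from 1 ask1 library. CBF1 was at 0.491 and 4.47 CPM in ask1 buds (75 counts in all), at 0 in each ASK1 WT bud library and at 0.0561 and 0 CPM in Col-0 buds (1 count). Against ASK1 WT this is at least 26.3-fold, taking 3 counts over the group as the limit that a count of 0 allows (the 95% counting interval of the ratio starts at 20.8), and against Col-0 the count ratio was 80.9 with a 95% counting interval of 14.1 to 3236. CBF2 was at 0.491 and 4.74 CPM in ask1 buds (79 counts), 0.0649 and 0.310 CPM in ASK1 WT buds (7 counts) and 0.112 and 0.0560 CPM in Col-0 buds (3 counts). The count ratio was 11.9 (5.49 to 30.4) against ASK1 WT and 28.4 (9.37 to 140.6) against Col-0. These intervals cover counting error only and not the gap between the ask1 libraries, in which replicate 2 held most of the counts of both genes. Without ask1 bud replicate 2 the log2 fold change against ASK1 WT was 6.13 for CBF1 and 1.27 for CBF2, and edgeR called neither.

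In open flowers the ask1 libraries overlapped 1 control each for CBF1 and CBF2. CBF1 was at 0.835 and 0.707 CPM in ask1, 0.180 and 1.46 CPM in ASK1 WT and 0.182 and 0.310 CPM in Col-0. CBF2 was at 2.12 and 1.83 CPM in ask1, 0.225 and 1.46 CPM in ASK1 WT and 1.27 and 1.86 CPM in Col-0. CBF1 in ask1 overlapped ASK1 WT (count ratio 1.04, 0.586 to 1.84) and lay above Col-0 (3.14, 1.37 to 8.05). CBF2 in ask1 lay above ASK1 WT (2.58, 1.65 to 4.13) and overlapped Col-0 (1.26, 0.858 to 1.86). ASK1 WT flower replicate 2 was the high ASK1 WT library for all 3 CBF genes, and without it the log2 fold change of ask1 over ASK1 WT was 1.97 for CBF1, 3.01 for CBF2 and 4.78 for CBF3.

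**Figure D1:**
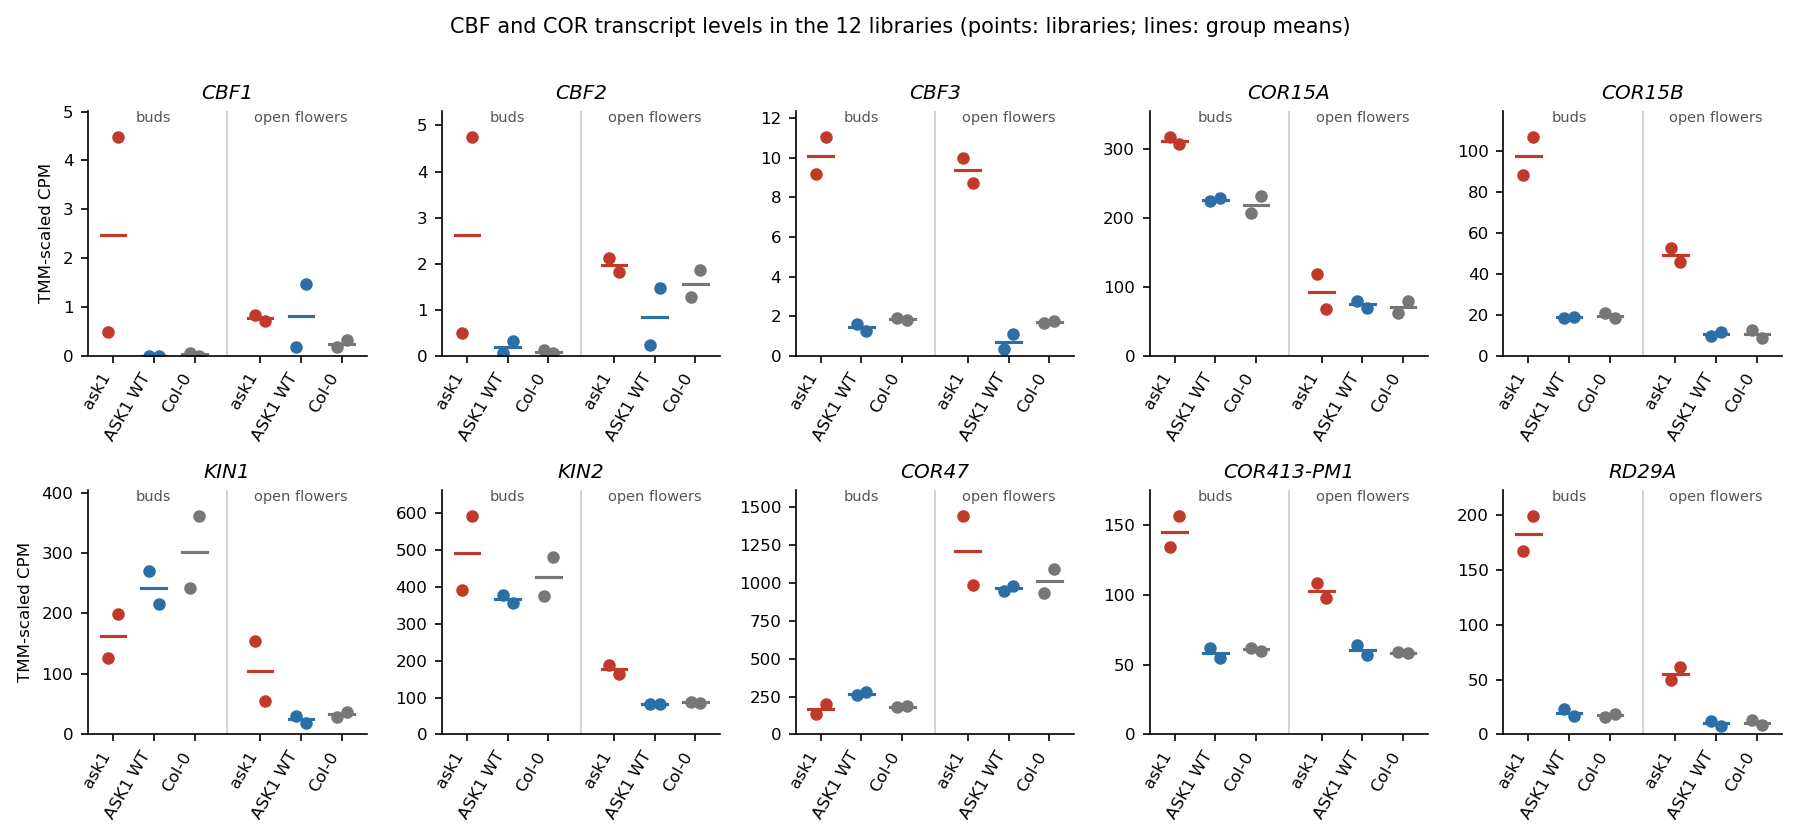
TMM-scaled CPM (linear axes from 0) of the 10 genes in each library, with buds left and open flowers right of the grey line in each panel, points for libraries and short lines for the means of 2. CBF3, COR15B, COR413-PM1 and RD29A are higher in every ask1 library than in every control library of the same tissue, while CBF1 and CBF2 in ask1 buds rest on 1 point near 4.5 CPM.

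Genes that respond within minutes to cold, touch or wounding were read beside CBF1 and CBF2. All 15 of 15 genes on this list were higher in ask1 bud replicate 2 than in ask1 bud replicate 1. Their summed level was 635 CPM in replicate 2 and 216.8 CPM in replicate 1, against 278.0 to 315.4 CPM in ASK1 WT buds and 129.9 to 140.3 CPM in Col-0 buds. In the lists used below, replicate 2 was the higher for 8 of 8 mature pollen markers and 8 of 9 other DREB genes. So it was for 12 of 16 abscisic acid genes, 14 of 21 upstream regulators, 15 of 23 other COR effectors and 6 of 10 clock genes. It was the higher for 1 of 4 tapetum, 1 of 4 floral organ and 0 of 4 green tissue markers. The share over all tested genes was not computed, so the split is not shown to be particular to this list. WRKY40, a transcription factor gene of wound and defence responses, was at 1.58 and 20.7 CPM in ask1 buds, against 0.325 and 0.621 CPM in ASK1 WT and 1.07 and 0.392 CPM in Col-0. RRTF1, a redox-responsive ERF factor, was at 0.764 and 15.6 CPM in ask1 buds (244 counts), against 0.0649 and 0.103 CPM in ASK1 WT (3 counts), a ratio of 85.4 with an interval of 28.9 to 417.1. ZAT10, a zinc-finger repressor, was at 3.22 and 21.5 CPM in ask1 buds, against 2.01 and 2.17 CPM in ASK1 WT and 1.23 and 0.896 CPM in Col-0. The zinc-finger, WRKY and ERF genes of this list thus split the ask1 bud libraries in the same direction as CBF1 and CBF2 did, while CBF3 was at 9.16 and 11.0 CPM. Whether handling of that sample contributed to its CBF1 and CBF2 levels was not tested. Against ASK1 WT, 9 of the 15 rose in ask1 buds and 0 fell (8.84% and 17% of all tested genes did), with a median log2 fold change of 1.57 against -0.05 over all tested genes. In open flowers 2 rose and 2 fell (14.1% and 15.9% of all), and the median was -0.61 against 0.01. The bud count went to 5 (2 rose and 3 fell) without ask1 bud replicate 2 and to 1 and 2 without ASK1 WT bud replicate 1 or 2. It was 3 without either ask1 flower replicate.

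**Figure D2:**
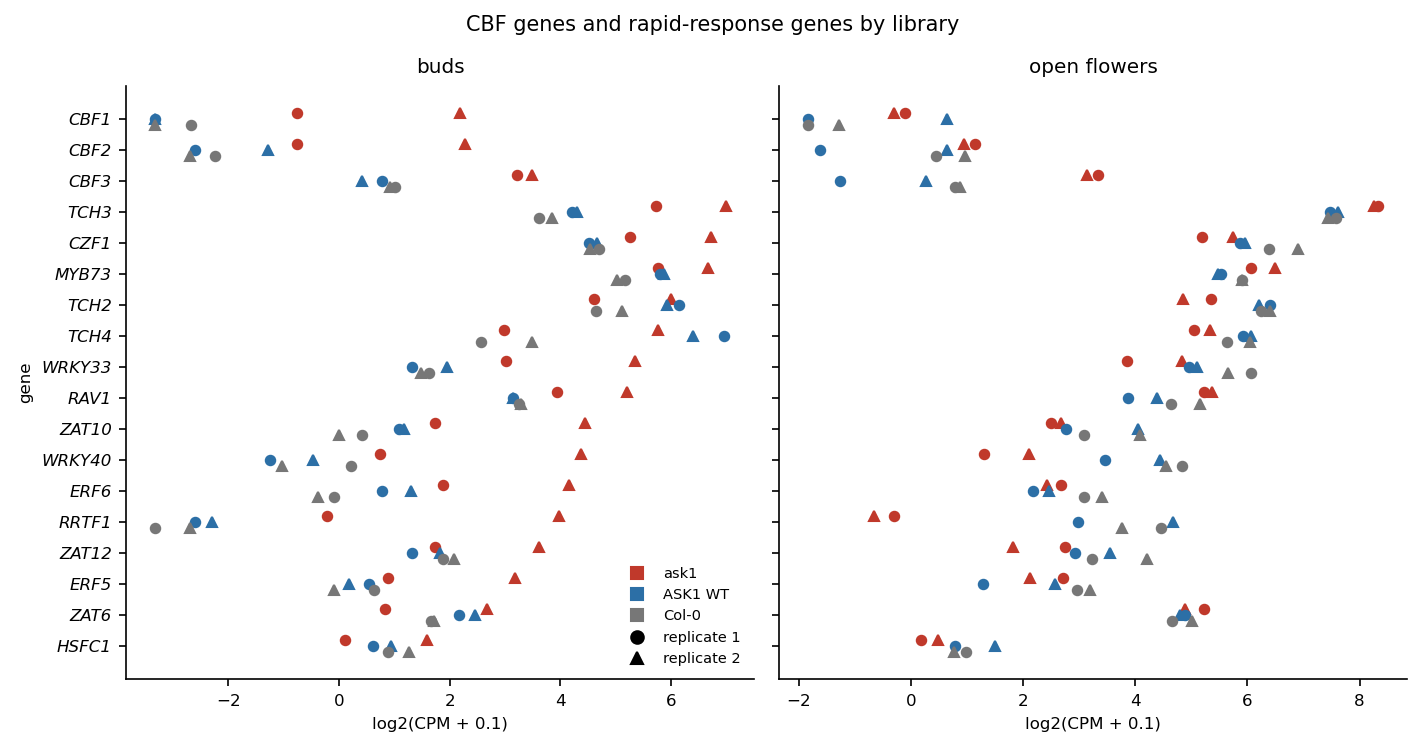
Level of the CBF genes and of the 15 rapid-response genes in buds (left) and open flowers (right) on a log2(CPM + 0.1) scale, with colours for genotypes, circles for replicate 1 and triangles for replicate 2. In buds the red triangle of ask1 replicate 2 lies right of the red circle for all 15 rapid-response genes and for CBF1 and CBF2, and the 2 lie close together for CBF3.

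COR15A and COR15B encode chloroplast proteins that stabilise membranes in the frozen cell. They differed in how far they departed from the controls although they lie 7 bases apart. COR15B was at 88.3 and 106.6 CPM in ask1 buds, against 18.5 and 18.8 CPM in ASK1 WT and 20.8 and 18.1 CPM in Col-0. Open flowers had 52.6 and 45.9 CPM in ask1, against 9.45 and 11.4 CPM in ASK1 WT and 12.4 and 8.42 CPM in Col-0. The genotypes did not overlap in either tissue, and the log2 fold change against ASK1 WT was 2.38 ± 0.18 in buds and 2.24 ± 0.19 in open flowers.

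COR15A, the more abundant of the pair, was at 316.8 and 307.7 CPM in ask1 buds, against 223.8 and 229.2 CPM in ASK1 WT and 206.8 and 231.2 CPM in Col-0. All ask1 bud libraries were above all controls, at a log2 fold change of 0.46 ± 0.23 against ASK1 WT. In open flowers its level was 118.1 and 67.1 CPM in ask1, against 79.0 and 69.7 CPM in ASK1 WT and 61.5 and 79.9 CPM in Col-0, and the genotypes overlapped. The open-flower value, 0.32 ± 0.23, rests on ask1 flower replicate 1, without which it was -0.20.

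KIN1 and KIN2, which encode small hydrophilic proteins, differed from the controls in other ways in buds than in open flowers. KIN1 was at 127.1 and 198.9 CPM in ask1 buds, below each of the controls at 270.1 and 214.9 CPM in ASK1 WT and 242.6 and 360.7 CPM in Col-0. In open flowers it was at 154.4 and 55.2 CPM in ask1, above each of the controls at 30.3 and 19.4 CPM in ASK1 WT and 29.6 and 38.0 CPM in Col-0. The log2 fold change against ASK1 WT was -0.57 ± 0.42 in buds and 2.07 ± 0.44 in open flowers. The open-flower value was 1.09 without ask1 flower replicate 1, the library whose levels fell with exon length (below). It was 1.69 without ASK1 WT flower replicate 2. By edgeR the open-flower rise was not called in either of these fits, nor with only the groups compared or with a 2-fold threshold. It was also not called with ask1 bud replicate 2 and ask1 flower replicate 1 both left out (1.08). With a trend over exon length removed from each library, the bud value was -0.16 and the open-flower value was 1.94.

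KIN2 was at 391.7 and 590.3 CPM in ask1 buds, against 377.7 and 355.8 CPM in ASK1 WT and 374.2 and 479.8 CPM in Col-0, with overlap. The open-flower libraries were at 188.9 and 163.3 CPM in ask1, against 83.4 and 82.1 CPM in ASK1 WT and 88.6 and 86.5 CPM in Col-0, with no overlap. The log2 fold change against ASK1 WT was 0.42 ± 0.19 in buds, where it was 0.09 without ask1 bud replicate 2 and 0.90 with the length trend removed, and 1.09 ± 0.20 in open flowers.

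RD29A, a hydrophilic protein gene that responds to cold, drought and abscisic acid, had the widest gap of the COR genes in buds. It was at 167.2 and 198.9 CPM in ask1 buds, against 22.8 and 16.9 CPM in ASK1 WT and 16.1 and 18.8 CPM in Col-0. In open flowers it was at 49.6 and 61.1 CPM in ask1, against 12.6 and 8.05 CPM in ASK1 WT and 12.8 and 8.36 CPM in Col-0. Every ask1 library was above every control of its tissue. The log2 fold change was 3.21 ± 0.26 in buds and 2.42 ± 0.26 in open flowers against ASK1 WT, and 3.39 ± 0.26 and 2.39 ± 0.26 against Col-0. RD29B, the neighbouring gene of the same family with a mainly abscisic acid-dependent response, held 3 counts in ask1 buds and 0 in ASK1 WT buds, and 2 and 3 counts in open flowers.

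COR413-PM1, which encodes a plasma-membrane protein with several membrane spans, was at 134.4 and 156.4 CPM in ask1 buds, against 62.1 and 55.0 CPM in ASK1 WT and 62.1 and 59.8 CPM in Col-0. In open flowers its level was 108.4 and 97.999 CPM in ask1, against 64.1 and 56.9 CPM in ASK1 WT and 59.4 and 58.1 CPM in Col-0. All 8 control libraries lay between 55.0 and 64.1 CPM, below every ask1 library. The log2 fold change against ASK1 WT was 1.31 ± 0.13 in buds and 0.77 ± 0.13 in open flowers.

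COR47 is a dehydrin gene. In buds it was at 133.6 and 202.8 CPM in ask1, against 259.8 and 278.8 CPM in ASK1 WT and 178.8 and 189.6 CPM in Col-0. The ask1 libraries lay below ASK1 WT but overlapped Col-0, with log2 fold changes of -0.68 ± 0.22 and -0.13 ± 0.22. In open flowers it was at 1440 and 984.9 CPM in ask1, against 947.3 and 983.4 CPM in ASK1 WT and 930.7 and 1095 CPM in Col-0. The open-flower value of 0.33 ± 0.22 against ASK1 WT was -0.02 without ask1 flower replicate 1.

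**Figure D3:**
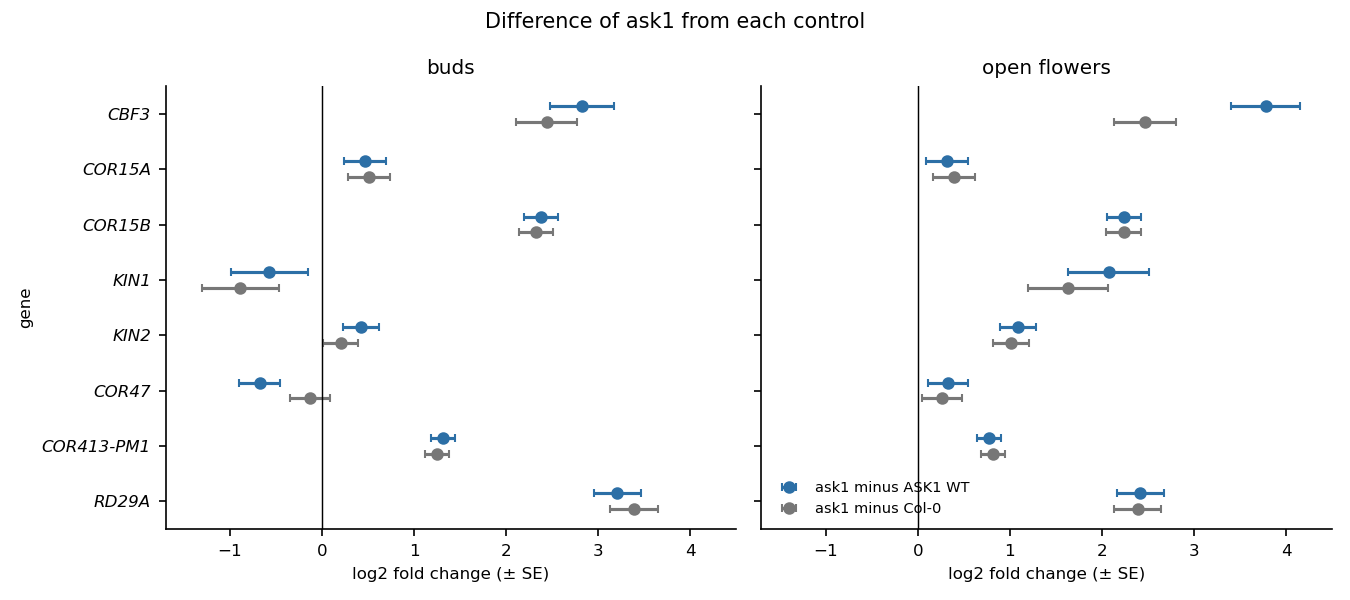
Log2 fold change (± SE) of ask1 over ASK1 WT (blue) and over Col-0 (grey) for 8 of the genes in buds and in open flowers; CBF1 and CBF2 are left out because control groups held 7 counts or fewer in buds. CBF3, COR15B, COR413-PM1 and RD29A lie right of 0 in all 4 comparisons, and KIN1 lies left of 0 in buds and right of it in open flowers.

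By edgeR's quasi-likelihood test, at a Benjamini-Hochberg adjusted p under 0.05 over all tested genes, 6 of the 10 were called higher in ask1 buds than in ASK1 WT buds (8.84% of all tested genes) and 1, COR47, was called lower (17% of all, and 25.9% were called in either direction). The COR47 call was lost with the length trend removed, with only the groups compared, with a 2-fold threshold and on leaving out any 1 library but ask1 bud replicate 2 or an ask1 flower replicate, and its value was -0.41 without ask1 bud replicate 1 and -1.01 without replicate 2. Among the risers, the calls of CBF1 and CBF2 were lost with a 2-fold threshold, with only the groups compared and without either ask1 flower replicate. Both calls were also lost without either ASK1 WT bud replicate and without ask1 bud replicate 2, alone or with ask1 flower replicate 1. The call of CBF2 was lost too with no filter and on leaving out any Col-0 library. The CBF2 value was 3.01 without ASK1 WT bud replicate 1 and 5.14 without replicate 2. COR413-PM1 lost its call with a 2-fold threshold. Against Col-0 buds 6 were called higher (7.04%) and 0 lower (14.1%, with 21.1% called in either direction). In open flowers 6 were called higher against ASK1 WT (14.1%) and 6 against Col-0 (12.9%), and 0 lower in each (15.9% and 14.3%), where 30% and 27.2% of all tested genes were called in either direction. The controls' libraries were all exceeded by both ask1 libraries for 7 genes in buds (22.5% of all tested genes) and for 6 in open flowers (25.2%), where 0 were below all controls (24.5%). KIN1 was the 1 gene below all controls in buds (32.1% of all). The difference between the ask1 effects in open flowers and in buds was called for KIN1 (4.45% of all tested genes were called higher, 2.36% lower and 6.82% either way). Since the genes were picked for their rises, nothing is read from these counts. The comparisons with ASK1 WT and with Col-0 share the ask1 libraries.

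Tissue differences in the controls did not enter the choice of the genes as a contrast, although the same libraries served as its references, and were tested. In open flowers against buds of Col-0, 5 of the 10 fell and 2 rose, where 17.1% of all tested genes fell and 18.8% rose (35.8% in all). KIN1 fell to 29.6 and 38.0 CPM in open flowers, against 242.6 and 360.7 CPM in buds (log2 fold change -3.16 ± 0.45, edgeR Benjamini-Hochberg adjusted p = 0.000265). KIN2 fell by 2.29 ± 0.20 (adjusted p = 8.53e-06 by edgeR), COR15A by 1.63 ± 0.23 (adjusted p = 0.000257) and COR15B by 0.90 ± 0.19 (adjusted p = 0.00332). COR47 ran the other way, at 930.7 and 1095 CPM in open flowers against 178.8 and 189.6 CPM in buds (2.46 ± 0.23, edgeR adjusted p = 1.25e-05).

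In ASK1 WT, 5 of the 10 fell and 1 rose, where 16.9% of all tested genes fell and 18.4% rose (35.3% in all). The log2 fold changes of open flowers over buds were -3.28 ± 0.46 for KIN1, -2.15 ± 0.20 for KIN2, -1.61 ± 0.23 for COR15A, -0.84 ± 0.19 for COR15B, -0.93 ± 0.25 for RD29A and 1.84 ± 0.23 for COR47, each called by edgeR with adjusted p-values of 1.42e-05 to 0.0147. KIN1, KIN2, COR15A and COR47 were called in each control under every alternative tried. RD29A in Col-0 was at -0.72 ± 0.26 with an edgeR adjusted p of 0.0493 and lost its call under 14 of 20 alternatives, whose adjusted p-values ran from 0.0135 to 1. RD29A in ASK1 WT lost its call without ASK1 WT bud replicate 1 (-0.71) or flower replicate 2 (-0.59) and with a 2-fold threshold. COR15B lost its call in Col-0 without Col-0 flower replicate 2 (-0.58), which left 4 of the 10 called, and in ASK1 WT without ASK1 WT flower replicate 1 (-0.71), and in each with a 2-fold threshold. The Col-0 rise of CBF2, with an edgeR adjusted p of 0.0413, was lost under 10 of 20 (0.000346 to 0.191). Its counts were 51 in open flowers against 3 in buds, a ratio of 18.6 (6.01 to 93.0).

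COR413-PM1 showed no tissue difference past the threshold in either control, at -0.05 ± 0.13 in Col-0 and 0.05 ± 0.13 in ASK1 WT. CBF3 was at -0.13 ± 0.38 in Col-0 and -1.06 ± 0.44 in ASK1 WT. CBF1 held 29 counts in ASK1 WT open flowers against 0 in buds, at least 8.53-fold for the pooled counts (the 95% counting interval starts at 6.51). Of the 29 counts, 25 came from ASK1 WT flower replicate 2 and 4 from replicate 1, a gap that the bound and the interval do not cover. Neither gene passed in ASK1 WT (edgeR adjusted p = 0.0877 for CBF3 and 0.0694 for CBF1). CBF1 passed under 5 of 20 alternatives, DESeq2 among them (adjusted p = 0.00244), with adjusted p-values of up to 0.357 under the others. CBF3 passed without ASK1 WT flower replicate 2, at -2.08 (edgeR adjusted p = 0.00482), and was at -0.36 without replicate 1, with adjusted p-values of up to 0.914 over the alternatives. For the same contrast in ask1, given as a description (22.2% of all tested genes rose and 15.5% fell, 37.7% in all), the log2 fold changes were 2.85 ± 0.24 for COR47, -1.75 ± 0.23 for COR15A, -1.73 ± 0.24 for RD29A, -1.48 ± 0.20 for KIN2, -0.98 ± 0.17 for COR15B, -0.64 ± 0.42 for KIN1 and -0.49 ± 0.13 for COR413-PM1.

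**Figure D4:**
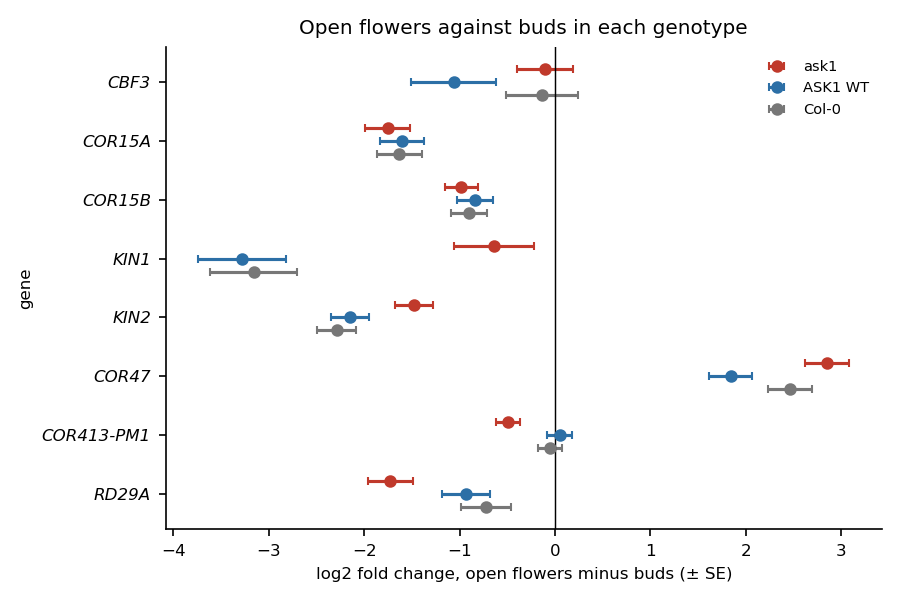
Log2 fold change (± SE) of open flowers over buds for 8 of the genes, by genotype (red ask1, blue ASK1 WT, grey Col-0). COR47 lies right of 0 and KIN1, KIN2, COR15A, COR15B and RD29A left of it in all 3 genotypes, with KIN1 at -0.64 in ask1 and near -3.2 in the controls.

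ASK1 WT was compared with Col-0 as the contrast without an ask1 effect. Of the 10 genes, 0 passed in buds (0.174% of all tested genes rose and 0.146% fell, 0.32% in all) and 0 in open flowers (0.032% rose and 0.00914% fell, 0.0411% in all), by edgeR and by DESeq2, which gave 2 of them no adjusted p in buds. At an unadjusted edgeR p under 0.05 there was 1 in buds, COR47 at 0.55 ± 0.22, and 1 in open flowers, CBF3 at -1.31 ± 0.43. Leaving out CBF1 and CBF2, the log2 fold changes of the other 8 ran from -0.38 to 0.55 in buds and from -1.31 to 0.07 in open flowers.

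The order of the levels was compared per kilobase of exon, with all exons of a gene in the RefSeq TAIR10.1 annotation merged. The counts were made on TAIR10, so these lengths may differ from those that were counted over, and the order depends on them. In buds KIN2 was highest in all 3 genotypes, with 654.6 ± 187.2 CPM per kilobase in ask1 buds, 489.0 ± 20.6 in ASK1 WT and 569.3 ± 99.5 in Col-0 (SD, n = 2 each). KIN1 was next in ASK1 WT and Col-0, whereas in ask1 the libraries of COR15A (197.1 ± 4.06) and KIN1 (196.6 ± 61.3) overlapped. RD29A was seventh in control buds, at 7.45 ± 1.56 in ASK1 WT, and in ask1 buds it stood at 68.7 ± 8.43, overlapping COR47 (72.5 ± 21.1) and COR15B (61.5 ± 8.19). In open flowers COR47 led in all 3 genotypes at 522.7 ± 138.8 CPM per kilobase in ask1 flowers, 416.1 ± 11.0 in ASK1 WT and 436.6 ± 50.1 in Col-0, ahead of KIN2 at 234.8 ± 24.1, 110.3 ± 1.26 and 116.7 ± 1.97. The CBF genes held the lowest 3 places in every group, with CBF3 the highest of them in all groups but ASK1 WT open flowers, where the 3 overlapped, and Col-0 open flowers, where CBF2 was higher.

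Clock genes with known links to CBF transcription differed widely in ask1. Against ASK1 WT, 4 of 10 rose in ask1 buds and 5 fell (8.84% and 17% of all tested genes did), and in open flowers the counts were 4 and 4 (14.1% and 15.9%). COR27, a cold- and light-regulated repressor of clock genes, was at 24.1 and 34.8 CPM in ask1 buds, against 1.23 and 1.76 CPM in ASK1 WT and 2.19 and 1.46 CPM in Col-0 (log2 fold change 4.27 ± 0.33), and rose by 4.79 ± 0.35 in open flowers. Its relative COR28 rose by 2.32 ± 0.39 in buds and 3.58 ± 0.38 in open flowers, and PRR5, a clock repressor, rose by 3.50 ± 0.17 in buds and was at 102.8 and 134.4 CPM in ask1 open flowers, against 7.15 and 7.70 CPM in ASK1 WT. CCA1, a clock repressor that peaks at dawn, was lower, at 10.2 and 11.4 CPM in ask1 buds, against 67.1 and 71.8 CPM in ASK1 WT and 48.8 and 40.8 CPM in Col-0 (-2.68 ± 0.17), and LHY (-2.85 ± 0.18) and RVE8 (-2.84 ± 0.19) were lower alike. In open flowers these 3 stood at -1.90 ± 0.16, -2.13 ± 0.18 and -1.58 ± 0.18. CCA1, LHY and RVE8 have been reported to act on CBF genes, and whether and in which direction they do so in these tissues was not tested. All libraries were sampled at 1 time of day, so a shift in phase and a change in level cannot be told apart.

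Among 21 upstream regulators of the CBF genes, 1 rose and 2 fell in ask1 buds (8.84% and 17% of all tested genes), with a median of 0.02. ICE1, the activator that cold stabilises, was at 81.9 and 74.4 CPM in ask1 buds, against 80.4 and 79.0 CPM in ASK1 WT and 69.2 and 71.1 CPM in Col-0, and at 67.1 and 67.7 CPM in ask1 open flowers, against 68.8 and 73.1 CPM in ASK1 WT and 71.3 and 63.2 CPM in Col-0. In buds ask1 overlapped ASK1 WT and lay above Col-0, and in open flowers the genotypes overlapped. The log2 fold changes against ASK1 WT were -0.03 ± 0.11 in buds and -0.07 ± 0.11 in open flowers. The kinase genes MPK3 (0.67 ± 0.21), OST1 (-0.45 ± 0.14) and MPK6 (-0.37 ± 0.12) were the 3 that passed in buds, and each lost its call under several alternatives. In open flowers 3 rose and 3 fell (14.1% and 15.9% of all), with a median of -0.20. PIF7, a phytochrome-interacting repressor of CBF genes, was at 6.55 and 8.83 CPM in ask1 open flowers, against 1.62 and 1.22 CPM in ASK1 WT and 1.94 and 1.73 CPM in Col-0 (2.42 ± 0.26). PIF4 (0.85 ± 0.16) and SOC1 (0.67 ± 0.11) rose, and MYB15 (-2.03 ± 0.48), EIN3 (-0.71 ± 0.17) and MPK6 (-0.46 ± 0.12) fell. Without ask1 flower replicate 2, 3 rose and 13 fell.

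Of the 9 other DREB genes 7 were tested, and 4 rose and 0 fell in ask1 buds (8.84% and 17% of all tested genes). DREB2A, an activator of heat and drought genes, was at 7.75 and 16.7 CPM in ask1 buds, against 2.08 and 1.97 CPM in ASK1 WT and 3.59 and 2.74 CPM in Col-0 (2.58 ± 0.35). DREB2C rose in buds (1.69 ± 0.43) and in open flowers (3.23 ± 0.40), as did DREB2B (1.41 ± 0.24 and 1.48 ± 0.23). CBF4, the drought-responsive relative of the CBF genes, held 6 counts in ask1 buds and 0 in ASK1 WT buds, and 1 and 2 counts in open flowers, too few for a comparison. DEAR1 was the fourth riser in buds, and without ask1 bud replicate 2 the list had 2. In open flowers 3 rose (14.1% of all), with RAP2.1 at 0.87 ± 0.23, and 1 (15.9% of all), DDF1, fell (-5.37 ± 0.97) at 0.193 and 0.118 CPM in ask1, against 2.83 and 10.6 CPM in ASK1 WT and 8.36 and 2.72 CPM in Col-0.

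Of 23 other COR effector genes 21 were tested. In ask1 buds 6 rose and 3 fell (8.84% and 17% of all tested genes), with a median of 0.04. Of the same list 6 rose and 1 fell in open flowers (14.1% and 15.9%), with a median of 0.24. GRP7, a clock- and cold-regulated RNA-binding protein gene, was at 3908 and 3866 CPM in ask1 buds, against 285.3 and 242.8 CPM in ASK1 WT and 336.5 and 423.3 CPM in Col-0 (3.88 ± 0.20), and rose by 4.13 ± 0.20 in open flowers. RCI2A, a small membrane protein gene, rose by 1.77 ± 0.19 in buds and 2.50 ± 0.19 in open flowers, and BAM3, a chloroplast beta-amylase gene of cold-induced starch breakdown, by 2.41 ± 0.30 and 0.88 ± 0.29. LTI30, a dehydrin gene, was at 3.44 and 6.37 CPM in ask1 buds, against 0.260 and 0.414 CPM in ASK1 WT (3.80 ± 0.55). ERD10, the dehydrin gene beside COR47, did not pass in either tissue (0.23 ± 0.20 and 0.43 ± 0.20). The light-stress genes ELIP1 (-2.46 ± 0.32) and ELIP2 (-2.65 ± 0.37) fell in buds, and GOLS1, an enzyme of raffinose synthesis, fell in open flowers (-2.27 ± 0.36).

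**Figure D5:**
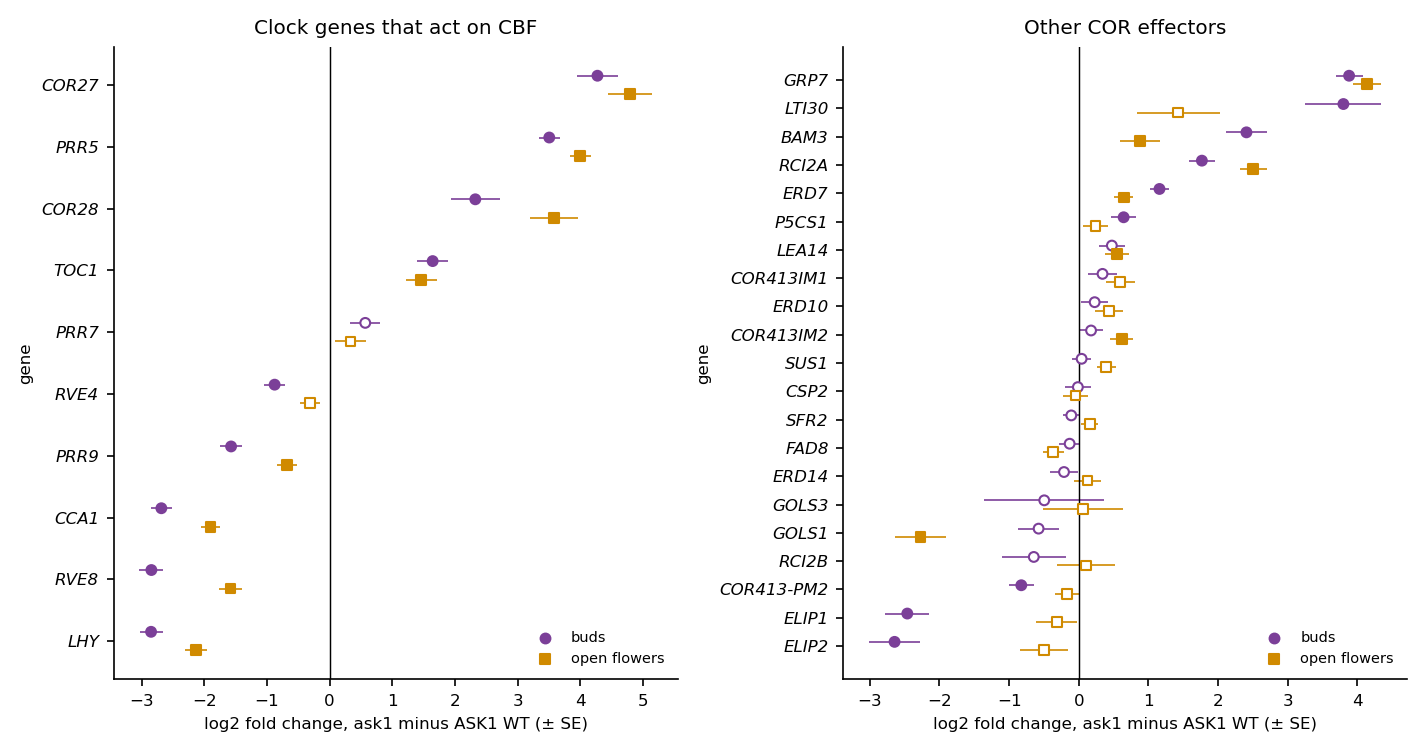
Log2 fold change (± SE) of ask1 over ASK1 WT for 10 clock genes (left) and 21 other COR effector genes (right), in buds (circles) and open flowers (squares), filled where the edgeR adjusted p was under 0.05. COR27, COR28, PRR5 and TOC1 lie right of 0 and CCA1, LHY, RVE8 and PRR9 left of it in each tissue, and GRP7, BAM3, RCI2A and ERD7 are filled right of 0 in each tissue.

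Of 16 abscisic acid response genes, 5 rose and 4 fell in ask1 buds (8.84% and 17% of all tested genes). In open flowers 3 rose and 5 fell (14.1% and 15.9%), with bud and open-flower medians of 0.04 and -0.21. RAB18, a dehydrin gene widely used as a reporter of abscisic acid, fell in buds (-0.86 ± 0.17) at 7.58 and 8.13 CPM in ask1, against 12.7 and 15.8 CPM in ASK1 WT and 9.99 and 9.74 CPM in Col-0. RD20, a caleosin gene, fell in both tissues (-1.95 ± 0.13 and -1.26 ± 0.12). NCED3, the gene of the rate-limiting step of abscisic acid synthesis under drought, rose in buds (1.63 ± 0.39) and fell in open flowers (-1.59 ± 0.31). HAI2, a phosphatase gene, rose in both (1.24 ± 0.14 and 0.81 ± 0.12).

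The genes most like the 7 COR, KIN and RD genes over the 12 libraries were sought by Pearson correlation of log2 CPM with their mean profile. The search covered 8770 tested genes that carry a symbol and pass a floor on mean CPM, so other tested genes were not compared. They were MES10 (r = 0.979), NRPD4 (0.967), TPPE (0.964), SADHU5-1 (0.959) and APT2 (0.953). For the mean profile of the 3 CBF genes they were ALDH6B2 (0.926), HSFA8 (0.923), FZF (0.895), APO2 (0.893) and HCF109 (0.891). With 12 libraries in 6 groups these values describe shared group means, and they share each library's depth.

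Depth was 13780265 to 23426466 counts in genes per library, so a count of 0 allows at most 0.128 to 0.218 CPM. Ask1 flower replicate 1 stood apart in that its levels fell with exon length (rank correlation -0.51, against -0.09 to 0.28 in the other 11). Tissue identity followed the labels, with 4 tapetum markers summing to 172.9 to 232.0 CPM in buds and to under 1 CPM in open flowers. All 8 mature pollen markers fell in ask1 in each tissue, and none was at 0 in a whole group. Their sum was 68.9 and 208.7 CPM in ask1 buds against 2166 to 2459 CPM in control buds, and 500.5 and 539.4 CPM in ask1 open flowers against 4038 to 5015 CPM in control open flowers. The 4 green tissue markers summed to 7407 and 7586 CPM in ask1 buds against 6045 to 6610 CPM in control buds, and to 7355 and 9989 CPM in ask1 open flowers against 6654 to 7310 CPM in control open flowers. None of the 4 green markers passed singly in buds against either control (median log2 fold change 0.06 against ASK1 WT and 0.11 against Col-0) or in open flowers against ASK1 WT, and RBCS1A passed in open flowers against Col-0. The part of these marker levels in the levels of the CBF and COR genes was not tested.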

How the data were processed

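Total RNA of 10 to 50 mg of tissue per sample was sequenced as 150-nt pairs, per the labels. The authors deposited read counts per gene, 1 table per library, made with Trimmomatic, TopHat2 and HTSeq on TAIR10, per the submitters' processing notes. Versions and which strand was counted are not given in the sources used here. HTSeq summary lines, 7.60% to 9.70% of each library, stayed out of library sizes and tests. Counts were filtered (edgeR minimum count 10, total 15), TMM-scaled and fitted in edgeR 4.0.16 (R 4.3.3) with 1 mean per group over 12 libraries and robust quasi-likelihood, with 6 residual degrees of freedom. Benjamini-Hochberg adjustment ran over all 21890 tested genes at 0.05, and SE is the log2 fold change divided by the square root of F. The fit was tested on simulated data. DESeq2 1.42.0, other filters and scalings, a 2-fold threshold, a length correction and leaving out libraries were the alternatives. Names, positions and sequences came from the RefSeq TAIR10.1 annotation and genome. The genes described, the lists and the naming rule (up to 6 genes per list and tissue that passed against ASK1 WT beyond all 4 controls, ranked by fold change, with ICE1, COR27, COR28, CBF4, ERD10 and RD29B always named) were chosen with earlier results of these data known. Not every gene that the rule names is printed. TOC1, PRR9, RBCS1A and genes shown only in figures or given for the other tissue fall outside it.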

Additional observations from a re-analysis of the deposited data

Results flagged for a closer look

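Several ask1 effects differed between the tissues. KIN1 lay below all 4 control libraries in both ask1 bud libraries and above all 4 in both ask1 open-flower libraries. The open-flower log2 fold change minus the bud one was 2.65 against ASK1 WT, and no test is read from it, since the gene was chosen on the ask1 effect.

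Among other genes of the pathway, the difference of the ask1 effect, open flowers minus buds, passed edgeR's quasi-likelihood test (Benjamini-Hochberg adjusted p under 0.05, as did 6.82% of all tested genes). It was positive for genes that fell more in buds, at 2.15 for ELIP2, 2.14 for ELIP1, 1.26 for RVE8, 1.09 for ABF3 and 0.69 for RD20, and for PIF7 at 1.66. It was negative at -2.30 for DREB2A, -1.53 for BAM3, -3.22 for NCED3, -1.62 for RD26 and -1.35 for ATHB12. The rapid-response genes WRKY40 (-6.76) and WRKY33 (-3.55) were the lowest. Both, like DREB2A, were higher in ask1 bud replicate 2 than in replicate 1. How the calls of these pathway genes fared with ask1 bud replicate 2 or ask1 flower replicate 1 left out is not given here. What set these differences was not tested.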

How the results depend on the processing

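Counts of called genes out of the 10 are given for a test against a 2-fold change in place of none, and were 3 in buds and 3 in open flowers for ask1 against ASK1 WT, 3 and 3 against Col-0, and 4 for open flowers against buds in Col-0. Leaving out 1 library at a time gave 4 to 7 and 5 to 8 against ASK1 WT, 4 to 6 and 4 to 7 against Col-0, 0 to 0 in buds and open flowers for ASK1 WT against Col-0, and 4 to 7, 5 to 7 and 5 to 7 for open flowers against buds in Col-0, ASK1 WT and ask1. ASK1 WT against Col-0 in buds gave 1 with only the groups compared, and 1 when replicate 2 of ask1 buds and replicate 1 of ask1 flowers were both left out. The tissue difference of the ask1 effect was called for 1 gene, for 0 with no filter, a 2-fold threshold or only the groups compared, 2 with the length trend removed, 4 without these 2 libraries, 4 by DESeq2, and 0 to 3 leaving out 1 library.
For the lists against ASK1 WT, in buds and then open flowers, leaving out 1 library gave 0 to 11 and 4 to 16 upstream regulators, 9 to 10 and 7 to 9 clock genes, 2 to 4 and 3 to 4 DREB genes, 7 to 12 and 3 to 13 COR effectors, 5 to 10 and 4 to 11 abscisic acid genes, and 1 to 11 and 0 to 6 rapid-response genes. The 2-fold test gave 0 and 1 upstream regulators, 1 and 2 DREB genes, 1 and 0 abscisic acid genes, 2 and 0 rapid-response genes, and 3 COR effectors in open flowers. With the length trend removed there were 9 and 10 upstream regulators and, in open flowers, 12 COR effectors. This correction moved the median of all genes by 0.22 in buds and 0.14 in open flowers. With only the groups compared there were 0 rapid-response genes in buds and, in open flowers, 2 upstream regulators, 3 COR effectors and 4 abscisic acid genes. With no filter there were 2 rapid-response genes in open flowers. Without these 2 libraries there were 6 upstream regulators in buds, and 12 COR effectors and 7 rapid-response genes in open flowers.
Values near 0 changed sign. COR413-PM1 in open flowers against buds of Col-0 was at 0.021 with no filter, 0.10 with the length trend removed, 0.020 without these 2 libraries and -0.081 to 0.036 leaving out 1, and in ASK1 WT at -0.041 to 0.20. ICE1 in ask1 buds was at 0.028 with no filter, 0.19 with the length trend removed, 0.031 with only the groups compared, 0.10 without these 2 libraries and -0.10 to 0.040 leaving out 1, and in open flowers at 0.21 with the length trend removed. The causes were not tested. Where a group was left with 1 library, that library was assumed to vary like the other groups. No paired analysis was possible because replicate numbers follow the order of deposition only and tie no samples together. Depth limits CBF1 and CBF2, whose bud groups held 0 to 7 counts in the controls.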
